A study of Mus musculus with 13 samples.

Results

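The genes of cholesterol synthesis and sterol handling were followed in 2 kinds of mouse natural killer (NK) cell: those resident in the liver (LrNK) and the conventional kind (cNK). Members were taken by name: 32 protein-coding genes of 54532 gene identifiers counted, found through their Ensembl identifiers in GENCODE M21. They fall into 19 genes of cholesterol synthesis, 7 regulators, 4 genes of sterol transport and storage and 2 efflux pumps. All 32 passed the filter on low counts in every comparison.

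All mice were C57BL/6J and 8 to 10 weeks old. The groups were LrNK labelled CD8KO (3 libraries), LrNK wild type (WT, 4 libraries), cNK labelled CD8KO (3 libraries) and cNK WT (3 libraries), and the series asks how CD8+ T cells bear on the maturation of LrNK cells. Cells were sorted and their total RNA was sequenced. The labels give liver lymphocytes as the source of LrNK and splenocytes as the source of cNK, so NK cell type and organ cannot be told apart in any comparison between them. The CD8KO label names no allele and no number of animals per library, and nothing says that replicates came from separate mice, so p-values measure the spread between these samples. Libraries 2 and 3 of LrNK labelled CD8KO agreed far more closely than other LrNK libraries (chi-square per degree of freedom 2.67, against 255 and 265 for their pairs with library 1), and so did libraries 2 and 4 of LrNK WT (3.04, against 196 to 283). Each such pair was summed and counted as 1 sample, although neither agreed within the sampling noise of independent counts. Of counts from 1 to 20, 60.6% to 65.2% were even in these paired libraries and 49.5% to 55.8% in the other LrNK libraries. In the cNK libraries 61.9% to 64.5% were even, so a high share was not particular to the paired libraries. Single counts may therefore not be independent, and the cause was not tested. This left n = 2 for LrNK labelled CD8KO, 3 for LrNK WT, 3 for cNK labelled CD8KO and 3 for cNK WT.

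Total counts per library were 35910292 to 47655853 in LrNK labelled CD8KO, 30578631 to 42986589 in LrNK WT, 48600875 to 59670243 in cNK labelled CD8KO and 53519657 to 72716020 in cNK WT. Library 1 of LrNK labelled CD8KO and libraries 1 and 3 of LrNK WT had 13917 to 15797 detected genes, and the other 10 libraries had 19896 to 22921. The NK subset names fitted their markers: all 4 liver-resident markers (Itga1, Cxcr6, Tnfsf10, Il7r) were higher in LrNK and all 4 conventional markers (Itga2, Eomes, Klra8, S1pr5) were lower, under both labels. Cd8a, one of the genes encoding CD8, was not lost under the CD8KO label. It had 42.5 and 47 CPM (counts scaled to a common library size) in LrNK labelled CD8KO, against 20.4, 21.4 and 20.5 CPM in LrNK WT, and 86.1, 83.4 and 105 CPM in cNK labelled CD8KO, against 0.555, 0.574 and 0.54 CPM in cNK WT. The counts are per gene and cannot show which exons were read. Whether the CD8KO and WT labels were exchanged cannot be told from these files either, and an exchange would turn the sign of every difference by label, so the labels are used here as names only.

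Cells make cholesterol from acetyl-CoA through the mevalonate pathway, squalene and lanosterol, and take up more of it in lipoproteins that are digested in lysosomes. SREBP2, the product of Srebf2, is held in the endoplasmic reticulum by SCAP and the INSIG proteins while sterol is plentiful, and when sterol runs low it is released, cut and sent to the nucleus, where it turns on synthesis and uptake genes. The liver X receptors, encoded by Nr1h2 and Nr1h3, sense oxysterols and turn on the efflux pumps ABCA1 and ABCG1. Lymphocytes raise sterol synthesis when they grow and divide.

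Promoter sequence shows what the members of the synthesis pathway have in common next to their start sites. Promoters were read from RefSeq (build GRCm38.p6, 250 bases upstream of the start) for 26 of the 32 members; Fdps, Fdft1, Sqle, Stard4, Npc1 and Abcg1 had no entry. Below, capitals mark the sterol regulatory element TCACNCCAC, the E-box CACGTG and the CCAAT box CCAAT, each searched on both strands, so that a CCAAT box on the other strand reads ATTGG. Hmgcs1 is shown because it was the synthesis gene that held the searched sterol element. Mvd, Cyp51 and Insig1 were chosen after their values were seen, as genes that were higher in LrNK than in cNK. Hmgcs1 lies at chr13:119690101-119690350 on the plus strand, Mvd at chr8:122443423-122443672 on the minus strand, Cyp51 at chr5:4104698-4104947 on the minus strand and Insig1 at chr5:28071162-28071411 on the plus strand, and all are printed 5′ to 3′ along the gene.
Hmgcs1: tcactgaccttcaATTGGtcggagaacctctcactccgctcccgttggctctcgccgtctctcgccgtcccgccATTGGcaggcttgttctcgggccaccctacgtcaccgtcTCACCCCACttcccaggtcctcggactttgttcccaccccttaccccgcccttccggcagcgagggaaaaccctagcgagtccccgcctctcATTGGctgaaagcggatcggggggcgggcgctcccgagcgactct
Mvd: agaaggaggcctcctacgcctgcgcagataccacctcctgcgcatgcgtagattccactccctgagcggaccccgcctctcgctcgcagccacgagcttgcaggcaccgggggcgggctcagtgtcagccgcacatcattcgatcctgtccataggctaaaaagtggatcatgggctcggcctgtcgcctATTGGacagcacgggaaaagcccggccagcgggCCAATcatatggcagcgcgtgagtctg
Cyp51: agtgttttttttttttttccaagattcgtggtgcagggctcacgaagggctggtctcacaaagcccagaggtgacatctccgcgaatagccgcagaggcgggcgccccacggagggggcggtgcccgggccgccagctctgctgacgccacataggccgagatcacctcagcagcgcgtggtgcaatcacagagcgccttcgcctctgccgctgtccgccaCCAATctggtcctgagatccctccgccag
Insig1: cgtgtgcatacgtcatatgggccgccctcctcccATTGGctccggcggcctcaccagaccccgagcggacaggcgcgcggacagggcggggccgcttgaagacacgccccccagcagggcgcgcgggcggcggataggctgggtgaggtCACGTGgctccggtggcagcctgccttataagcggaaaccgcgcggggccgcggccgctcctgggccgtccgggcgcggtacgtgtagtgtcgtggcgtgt
The Hmgcs1 window held 1 sterol element and 3 CCAAT boxes, the Mvd window 2 CCAAT boxes, the Cyp51 window 1 CCAAT box, and the Insig1 window 1 E-box and 1 CCAAT box. A CCAAT box was found in 15 of the 16 synthesis genes with a promoter entry and in 37.5% of 27025 genes. The exception was Acat2. The GC box GGGCGG, searched on both strands and not marked above, was found in 14 of these 16 genes and in 35.4% of all genes. The sterol element, as the exact pattern TCACNCCAC, was found in 1 of the 16 and in 1.22% of all genes. Other forms of the element were not searched, so a window without this pattern may still hold one. The E-box was found in 6 of the 26 members (Hsd17b7, Dhcr7, Sc5d, Scap, Insig1 and Abca1) and in 6.86% of all genes. The shares of all genes cover every gene with a promoter entry, expressed here or not. Whether the motifs are more common in this pathway than in other expressed genes was not tested. These matches describe letters in a short window, and binding was not measured.

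Expressed as mean CPM per kilobase of exon, the highest members in every group were Nr1h2, encoding LXR-beta, and Npc2, a lysosomal cholesterol carrier. Nr1h2 stood at 57.1 CPM per kilobase in LrNK labelled CD8KO and 49.9 in cNK labelled CD8KO, and at 66.4 in LrNK WT and 50.9 in cNK WT. Srebf2 came next in LrNK, with 50.9 CPM per kilobase in LrNK labelled CD8KO and 42.6 in LrNK WT, whereas it ranked 6 in both cNK groups, at 14.3 under the CD8KO label and 13.3 in WT. The lowest member in every group was Fdps, farnesyl diphosphate synthase. It collected 364 counts over all 13 libraries, and 26.7% of its exon length is shared with the annotated gene Gm43738 on the same strand, so its level is uncertain. Sqle, squalene epoxidase, was second from the bottom in cNK, at 0.364 CPM per kilobase under the CD8KO label and 0.334 in WT, and stood at 3.35 in LrNK labelled CD8KO and 3.02 in LrNK WT.

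The first question was how the members differed between LrNK and cNK. Under both labels a block of synthesis genes, the regulators Srebf2, Srebf1 and Insig1 and the sterol carrier Stard4 were higher in LrNK, while the efflux pump Abca1 was lower. In LrNK labelled CD8KO against cNK labelled CD8KO, 14 members were higher and 3 lower by edgeR's quasi-likelihood test with Benjamini-Hochberg adjustment (adjusted p under 0.05), which is 53.1% of members, beside 27% of the 17795 genes tested (15.4% higher and 11.6% lower). In LrNK WT against cNK WT, 11 were higher and 1 lower, which is 37.5% of members, beside 20.7% of the 16456 genes tested (10.9% higher and 9.83% lower). The median log2 change over the 32 members was 0.68 under the CD8KO label and 0.61 in WT, beside medians of -0.05 and -0.08 over all genes tested. Groups did not overlap for 19 members that were higher and 3 that were lower under the CD8KO label, beside 60.1% of all genes (26.6% higher and 33.5% lower). In WT this was so for 14 higher and 3 lower, beside 48% of all genes (18.8% higher and 29.3% lower). The share of members without overlap, either way, was thus near the background, with more members higher than lower where all genes ran the other way. These 2 comparisons have no samples in common. Each used 1 estimate of the spread for LrNK and cNK together, although LrNK samples vary far more than cNK samples. By edgeR, the common coefficient of variation between samples was 98.2% in the fit of LrNK alone and 9.6% in that of cNK alone. It was 63.7% in LrNK WT against cNK WT and 41.9% under the CD8KO label. Standard errors and p-values of LrNK against cNK may therefore understate the spread of LrNK.

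**Figure D1:**
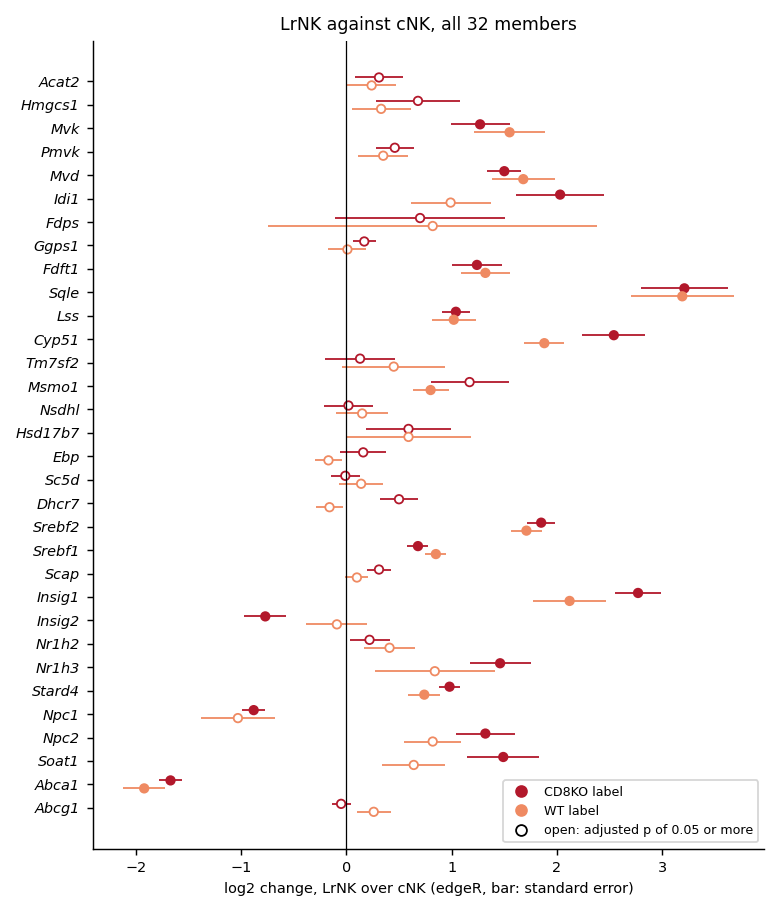
Log2 change of LrNK over cNK (x axis) for each of the 32 members (y axis), with CD8KO-labelled samples in dark red above WT samples in orange. Points are edgeR estimates, bars are standard errors and filled points passed an adjusted p of 0.05. Sqle, Insig1, Cyp51 and Srebf2 lie farthest to the right among the filled points of both labels, apart from Idi1 under the CD8KO label, and Abca1 lies farthest to the left.

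The summed CPM of the 19 synthesis genes was 587 and 381 in LrNK labelled CD8KO, against 298, 285 and 292 in cNK labelled CD8KO. It was 423, 402 and 509 in LrNK WT, against 302, 311 and 303 in cNK WT. Every LrNK sample was above every cNK sample. The rise was spread unevenly: 7 of the 19 genes were higher and none lower in each comparison, and 6 of these were the same genes under both labels (Mvk, Mvd, Fdft1, Sqle, Lss and Cyp51). The 7 genes are 36.8% of the synthesis genes. Over all genes, 27% were called under the CD8KO label (15.4% higher) and 20.7% in WT (10.9% higher).

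Sqle makes squalene epoxide from squalene. It had 25.5 and 11.6 CPM in LrNK labelled CD8KO, against 1.81, 1.61 and 2.64 CPM in cNK labelled CD8KO. Among WT samples the values were 12.1, 9.33 and 28.8 CPM in LrNK, against 1.96, 1.84 and 1.75 CPM in cNK. The groups did not overlap, and LrNK samples themselves spread about as widely as a factor of 3 (9.33 to 28.8 CPM). The log2 change was 3.21 ± 0.41 under the CD8KO label (SE, edgeR adjusted p = 0.00472) and 3.19 ± 0.49 in WT (adjusted p = 0.00744), the largest among the members in both comparisons.

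Cyp51, lanosterol demethylase, had 56 and 27.8 CPM in LrNK labelled CD8KO, against 7.63, 6.66 and 7.42 CPM in cNK labelled CD8KO. It stood at 26.3, 27.8 and 34.6 CPM in LrNK WT, against 8.75, 8.15 and 7.65 CPM in cNK WT. Its lowest LrNK sample stood well above its highest cNK sample. The log2 change was 2.54 ± 0.30 under the CD8KO label (edgeR adjusted p = 0.0035) and 1.88 ± 0.19 in WT (edgeR adjusted p = 0.00153). It shares 166 exon bases with Akap9 on the opposite strand, which fell by 0.88 and 0.96 on the log2 scale in the same comparisons.

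Mvd, the decarboxylase that yields isopentenyl diphosphate, had 52.2 and 39.3 CPM in LrNK labelled CD8KO, against 16.5, 14.7 and 17.7 CPM in cNK labelled CD8KO. The WT values were 36.5, 40.5 and 78.7 CPM in LrNK, against 16.7, 15.8 and 16.7 CPM in cNK. Replicate 3 of LrNK WT was the highest sample, and again no LrNK value fell among the cNK values. The log2 change was 1.5 ± 0.16 under the CD8KO label (edgeR adjusted p = 0.00279) and 1.68 ± 0.30 in WT (edgeR adjusted p = 0.0127).

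Mvk, mevalonate kinase, had 11 and 16 CPM in LrNK labelled CD8KO, against 6.75, 5.79 and 4.53 CPM in cNK labelled CD8KO. LrNK WT had 9.86, 14.5 and 20.7 CPM, against 5.6, 5.23 and 4.75 CPM in cNK WT. These groups did not overlap either, at log2 changes of 1.27 ± 0.28 under the CD8KO label (edgeR adjusted p = 0.0244) and 1.55 ± 0.34 in WT (edgeR adjusted p = 0.0232). Lss, lanosterol synthase, had 38.7 and 41 CPM in LrNK labelled CD8KO, against 17.9, 19.7 and 21.3 CPM in cNK labelled CD8KO, and in WT 31.9, 50.8 and 39.8 CPM in LrNK, against 20.9, 18.4 and 22 CPM in cNK. Its levels in LrNK were about double those in cNK, with log2 changes of 1.04 ± 0.13 under the CD8KO label (edgeR adjusted p = 0.00429) and 1.02 ± 0.21 in WT (edgeR adjusted p = 0.0193).

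Fdft1, squalene synthase, had 35.4 and 20.3 CPM in LrNK labelled CD8KO, against 12, 11.8 and 11.9 CPM in cNK labelled CD8KO. Among WT samples the values were 22.9, 24.7 and 37.4 CPM in LrNK, against 11, 11.1 and 12.4 CPM in cNK. The log2 change was 1.24 ± 0.24 under the CD8KO label (edgeR adjusted p = 0.0173) and 1.32 ± 0.23 in WT (edgeR adjusted p = 0.0116). Fdft1 shares 774 exon bases, 18.3% of its exon length, with Ctsb on the opposite strand. Ctsb, a lysosomal protease gene, was itself higher in LrNK, by 1.88 and 1.13 on the log2 scale. Whether counting used strand is not given in the sources used here, so reads of the shared bases cannot be told apart.

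Idi1 and Msmo1 passed the test under 1 label each. Idi1, isopentenyl diphosphate isomerase, had 18.8 and 7.73 CPM in LrNK labelled CD8KO, against 2.92, 4.04 and 2.83 CPM in cNK labelled CD8KO, a log2 change of 2.03 ± 0.42 (edgeR adjusted p = 0.0204). It stood at 8.46, 5.72 and 6.26 CPM in LrNK WT, against 3.46, 3.48 and 3.51 CPM in cNK WT, a log2 change of 0.99 ± 0.38 (edgeR adjusted p = 0.122). Msmo1, a methylsterol oxidase, had 21.1, 19.5 and 23 CPM in LrNK WT, against 12.3, 12.6 and 12.2 CPM in cNK WT, and rose by 0.80 ± 0.17 (edgeR adjusted p = 0.021). Under the CD8KO label it had 39.5 and 15.9 CPM in LrNK, against 13.1, 12.1 and 11.8 CPM in cNK, at 1.17 ± 0.37 (edgeR adjusted p = 0.0668). Both genes were without overlap under both labels, so the calls differ while the order of the samples does not.

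The other 11 synthesis genes passed in neither comparison: Acat2, Hmgcs1, Pmvk, Fdps, Ggps1, Tm7sf2, Nsdhl, Hsd17b7, Ebp, Sc5d and Dhcr7. Their log2 changes lay between -0.01 (Sc5d) and 0.70 (Fdps) under the CD8KO label and between -0.17 (Ebp) and 0.82 (Fdps) in WT. Hmgcs1, which condenses acetoacetyl-CoA with acetyl-CoA at the head of the pathway, had 56.9 and 20.5 CPM in LrNK labelled CD8KO, against 24.5, 23.5 and 24.6 CPM in cNK labelled CD8KO. The WT values were 38.4, 18.5 and 34.8 CPM in LrNK, against 22, 25.2 and 26.6 CPM in cNK. Its summed pair of close libraries lay below all cNK samples under both labels, and its remaining LrNK samples lay above them. Ebp, a late sterol isomerase, had 70.3 and 41.3 CPM in LrNK labelled CD8KO, against 52.4, 49.3 and 48.8 CPM in cNK labelled CD8KO, and 46.2, 50.5 and 42.3 CPM in LrNK WT, against 50.4, 57.8 and 50.8 CPM in cNK WT. Dhcr7, the last reductase of the pathway to cholesterol, had 46.8 and 31 CPM in LrNK labelled CD8KO, against 28.5, 27.1 and 27.6 CPM in cNK labelled CD8KO, and 29.5, 26.4 and 26.5 CPM in LrNK WT, against 29.8, 33 and 30.9 CPM in cNK WT. It was higher without overlap under the CD8KO label and lower without overlap in WT, and passed in neither. Pmvk, phosphomevalonate kinase, was higher without overlap under both labels, at log2 changes of 0.46 ± 0.18 under the CD8KO label (edgeR adjusted p = 0.122) and 0.35 ± 0.24 in WT (edgeR adjusted p = 0.376). Acat2, which makes acetoacetyl-CoA, was at 0.31 and 0.24, Hsd17b7, a sterol ketoreductase, at 0.59 and 0.59, Nsdhl, a sterol dehydrogenase, at 0.02 and 0.15, and Sc5d, a sterol desaturase, at -0.01 and 0.14, with overlap in both comparisons. Tm7sf2, a sterol reductase, was at 0.13 and 0.45 with overlap in both, and shares 12.1% of its exon length with Vps51 on the same strand.

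Ggps1, which leads from farnesyl diphosphate to geranylgeranyl diphosphate and so away from sterols, averaged 33.4 ± 0.566 CPM in LrNK labelled CD8KO (SD, n = 2) and 30 ± 1.01 CPM in cNK labelled CD8KO (SD, n = 3), and 33.1 ± 6.69 CPM in LrNK WT and 33.3 ± 2.35 CPM in cNK WT (SD, n = 3 each). Under the CD8KO label its LrNK samples (33 and 33.8 CPM) lay above all cNK samples (29.3, 29.5 and 31.2 CPM). The WT groups overlapped.

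**Figure D2:**
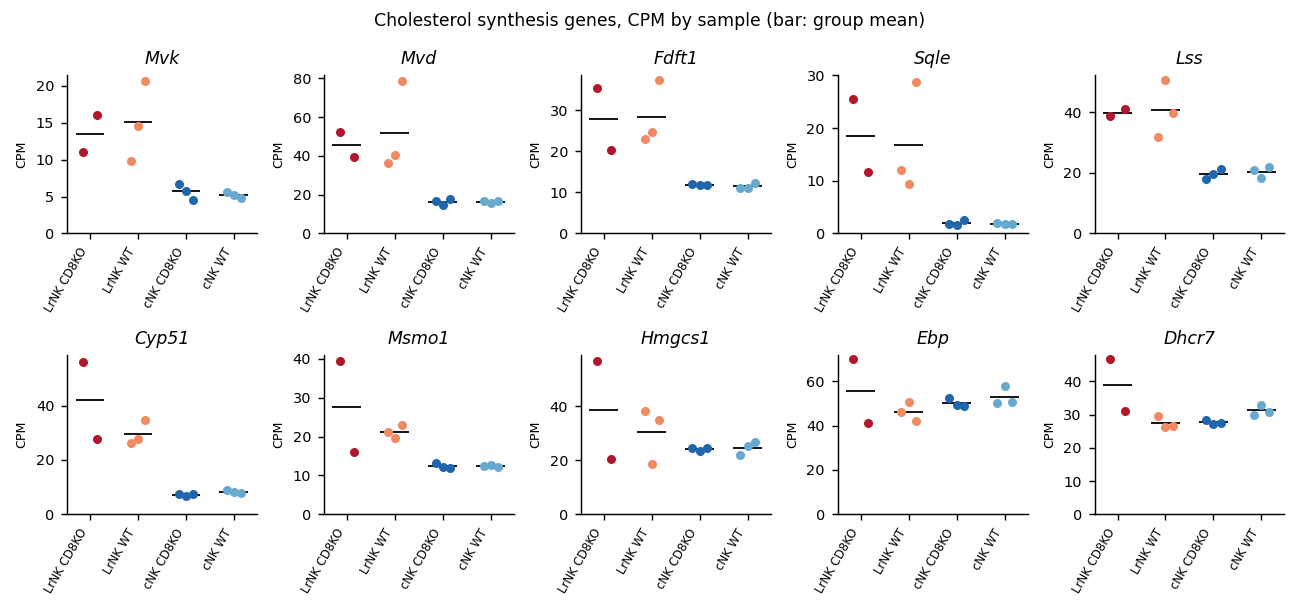
CPM (y axis, linear, from 0) of 10 synthesis genes in each sample, by group (x axis: LrNK CD8KO, LrNK WT, cNK CD8KO, cNK WT). Points are samples and bars are group means. The 7 genes from Mvk to Msmo1 have every LrNK sample above every cNK sample, whereas Hmgcs1 and Ebp overlap under both labels. Dhcr7 is higher in LrNK under the CD8KO label and lower in LrNK WT, without overlap within either label.

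Of the 7 regulators, 4 were higher and 1 lower under the CD8KO label, and 3 were higher and none lower in WT. This is 71.4% of regulators under the CD8KO label and 42.9% in WT, beside 27% and 20.7% of all genes. The summed CPM of the regulators was 909 and 1079 in LrNK labelled CD8KO, against 513, 544 and 491 in cNK labelled CD8KO. It was 815, 994 and 918 in LrNK WT, against 490, 505 and 500 in cNK WT. Srebf2 had 341 and 391 CPM in LrNK labelled CD8KO, against 103, 113 and 93 CPM in cNK labelled CD8KO. LrNK WT had 329, 342 and 247 CPM, against 92.7, 97.9 and 95.2 CPM in cNK WT. No LrNK sample came near a cNK sample, and the log2 change was 1.85 ± 0.13 under the CD8KO label (edgeR adjusted p = 0.000835) and 1.71 ± 0.15 in WT (edgeR adjusted p = 0.00104).

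Srebf1, encoding SREBP1, which acts mainly on fatty acid synthesis, had 168 and 178 CPM in LrNK labelled CD8KO, against 110, 115 and 104 CPM in cNK labelled CD8KO. Among WT samples the values were 169, 178 and 182 CPM in LrNK, against 96, 102 and 99.2 CPM in cNK. The spread within each group was small, and the log2 change was 0.68 ± 0.10 under the CD8KO label (edgeR adjusted p = 0.00721) and 0.85 ± 0.10 in WT (edgeR adjusted p = 0.00239).

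Insig1 encodes a retention protein of the SCAP complex and is itself a known SREBP target. It had 93.9 and 150 CPM in LrNK labelled CD8KO, against 19.3, 18.3 and 17.1 CPM in cNK labelled CD8KO. It stood at 44.5, 116 and 80.8 CPM in LrNK WT, against 19.4, 16.5 and 20.5 CPM in cNK WT. LrNK samples varied widely but stayed above cNK, with log2 changes of 2.77 ± 0.22 under the CD8KO label (edgeR adjusted p = 0.00117) and 2.12 ± 0.35 in WT (edgeR adjusted p = 0.00899). Insig2, its paralog, went the other way under the CD8KO label. It had 16.5 and 11.1 CPM in LrNK labelled CD8KO, against 23.9, 23.7 and 23.4 CPM in cNK labelled CD8KO, a log2 change of -0.77 ± 0.20 (edgeR adjusted p = 0.0381). The WT values were 26, 12.6 and 26 CPM in LrNK, against 23.8, 23.7 and 22.1 CPM in cNK, so the groups overlapped, and its log2 change was -0.09 ± 0.29 (edgeR adjusted p = 0.88).

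Scap, the escort of SREBP, did not pass under either label, with log2 changes of 0.31 ± 0.11 under the CD8KO label (edgeR adjusted p = 0.0896) and 0.10 ± 0.11 in WT (edgeR adjusted p = 0.575). Nr1h2 did not pass either, at 0.22 ± 0.19 under the CD8KO label (edgeR adjusted p = 0.457) and 0.41 ± 0.24 in WT (edgeR adjusted p = 0.308). Nr1h3, encoding LXR-alpha, had 27 and 17.4 CPM in LrNK labelled CD8KO, against 6.06, 8.23 and 9.98 CPM in cNK labelled CD8KO, and rose by 1.46 ± 0.29 (edgeR adjusted p = 0.0175). LrNK WT had 13.9, 4.13 and 23.6 CPM, against 7.84, 7.55 and 8.15 CPM in cNK WT. The summed sample of LrNK WT libraries 2 and 4 lay below all cNK WT samples, and the log2 change of 0.84 ± 0.57 did not pass (edgeR adjusted p = 0.38).

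Of the transport and storage genes, Stard4 rose under both labels. It encodes a soluble carrier that moves cholesterol between membranes and is a known SREBP target. It had 59.8 and 60.3 CPM in LrNK labelled CD8KO, against 29.3, 31.5 and 31.3 CPM in cNK labelled CD8KO, and 52.1, 60 and 43.8 CPM in LrNK WT, against 31.4, 31.2 and 32.6 CPM in cNK WT. The log2 change was 0.98 ± 0.10 under the CD8KO label (edgeR adjusted p = 0.00246) and 0.74 ± 0.15 in WT (edgeR adjusted p = 0.0204). Npc1, the membrane partner of NPC2 that exports cholesterol from lysosomes, had 77.5 and 64.5 CPM in LrNK labelled CD8KO, against 135, 132 and 131 CPM in cNK labelled CD8KO, and fell by 0.88 ± 0.11 on the log2 scale (edgeR adjusted p = 0.00425). Among WT samples the values were 87.7, 57.4 and 30.7 CPM in LrNK, against 120, 127 and 118 CPM in cNK. All LrNK samples were lower there too, but they differed widely among themselves, and the log2 change of -1.03 ± 0.35 did not pass (edgeR adjusted p = 0.0859). Npc1 shares 511 exon bases, 4.52% of its exon length, with Rmc1 on the opposite strand, which fell by 0.53 under the CD8KO label.

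Npc2 and Soat1 passed under the CD8KO label. Npc2 had 688 and 334 CPM in LrNK labelled CD8KO, against 209, 205 and 206 CPM in cNK labelled CD8KO, a log2 change of 1.32 ± 0.28 (edgeR adjusted p = 0.0231). It stood at 331, 209 and 473 CPM in LrNK WT, against 194, 205 and 184 CPM in cNK WT, a log2 change of 0.82 ± 0.27 (edgeR adjusted p = 0.0836). The lowest LrNK sample was hardly above the highest cNK sample in WT. Soat1, which esterifies cholesterol for storage in lipid droplets, had 119 and 50.6 CPM in LrNK labelled CD8KO, against 32.3, 28.2 and 30.9 CPM in cNK labelled CD8KO, a log2 change of 1.49 ± 0.34 (edgeR adjusted p = 0.0269). The WT values were 57.1, 31.4 and 75.2 CPM in LrNK, against 36.3, 31.3 and 38.4 CPM in cNK. Those groups overlapped, and the log2 change of 0.64 ± 0.30 did not pass (edgeR adjusted p = 0.192).

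Of the 2 efflux pumps, Abca1 was lower in LrNK under both labels and Abcg1 passed under neither. Abca1, which loads cholesterol onto lipid-poor apolipoprotein, had 35.3 and 37.9 CPM in LrNK labelled CD8KO, against 116, 124 and 114 CPM in cNK labelled CD8KO. LrNK WT had 29.1, 31.6 and 19.8 CPM, against 94.3, 110 and 106 CPM in cNK WT. All LrNK samples were far below all cNK samples, and Abca1 fell by 1.67 ± 0.11 on the log2 scale under the CD8KO label (edgeR adjusted p = 0.000675) and by 1.92 ± 0.20 in WT (edgeR adjusted p = 0.00185). Abcg1, which passes cholesterol to mature high-density lipoprotein, had 143 and 140 CPM in LrNK labelled CD8KO, against 154, 150 and 142 CPM in cNK labelled CD8KO, and 191, 127 and 143 CPM in LrNK WT, against 126, 140 and 125 CPM in cNK WT. Its groups overlapped under both labels, with log2 changes of -0.05 ± 0.09 under the CD8KO label (edgeR adjusted p = 0.717) and 0.26 ± 0.16 in WT (edgeR adjusted p = 0.335).

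**Figure D3:**
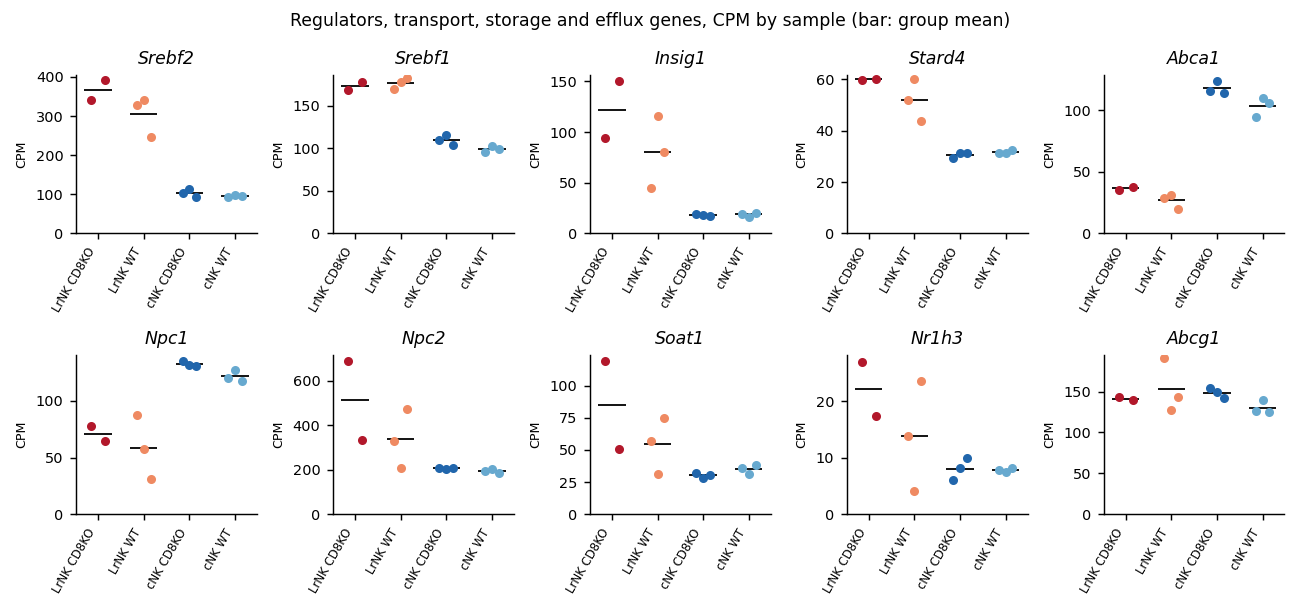
CPM (y axis, linear, from 0) of 10 regulator, transport, storage and efflux genes in each sample, by group (x axis: LrNK CD8KO, LrNK WT, cNK CD8KO, cNK WT). Points are samples and bars are group means; LrNK samples lie above cNK samples for Srebf2, Srebf1, Insig1 and Stard4, below them for Abca1 and Npc1, and overlap them for Abcg1.

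Markers of other cells moved between LrNK and cNK as well. Their counts of called genes stand beside 27% of all genes under the CD8KO label and 20.7% in WT. The summed CPM of 9 neutrophil and monocyte genes was 8263 and 2507 in LrNK labelled CD8KO, against 404 to 453 in cNK labelled CD8KO, and 1983, 651 and 3804 in LrNK WT, against 451 to 510 in cNK WT. Of these 9 genes, 7 were higher and 1 lower in LrNK under the CD8KO label, and in WT 3 were higher and 2 lower of 5 tested. Mpo was at 0 in all LrNK WT samples. The sum in cNK was made up mostly of Ly6c2 and Itgam, at 236 to 268 and 196 to 227 CPM in cNK WT, and these 2 genes were lower in LrNK WT, at 46.6 to 120 and 15.1 to 35.5 CPM. Lyz2, a lysozyme gene of myeloid cells, had 7574 and 2111 CPM in LrNK labelled CD8KO, against 13.7 to 18.6 CPM in cNK labelled CD8KO, and 1838, 553 and 3525 CPM in LrNK WT, against 11.9 to 15.9 CPM in cNK WT. The summed CPM of 10 Kupffer cell genes was 757 to 1592 in LrNK labelled CD8KO, against 222 to 333 in cNK labelled CD8KO, and 239 to 830 in LrNK WT, against 232 to 306 in cNK WT. Most of that sum in LrNK was Csf1r, at 120 to 1143 CPM, and its other genes did not move one way. Clec4f, a Kupffer cell lectin, was at 3.05 to 21.4 CPM in LrNK and at 0 in all cNK samples, whereas Marco was at 0 to 1.34 CPM in LrNK and 2.29 to 5.52 CPM in cNK, and Cd5l at 2.54 to 18.4 CPM in LrNK and 18.9 to 31.9 CPM in cNK. The summed CPM of 10 hepatocyte genes was 42.7 to 56.6 in LrNK labelled CD8KO, against 1.56 to 1.74 in cNK labelled CD8KO, and 33.2 to 52.8 in LrNK WT, against 1.37 to 2.07 in cNK WT. The sum of 8 T cell genes was 350 and 419 CPM in LrNK labelled CD8KO, against 161 to 175 CPM in cNK labelled CD8KO, and 418 to 523 CPM in LrNK WT, against 148 to 165 CPM in cNK WT. Most of that sum in LrNK was Trbc2, at 192 to 421 CPM, against 79.2 to 97.6 CPM in cNK. Of these 8 genes, 7 were higher and 1 lower under the CD8KO label, and 6 were higher and 1 lower in WT. Lef1 was the lower one, at 8.21 to 20.7 CPM in LrNK, against 41.2 to 53.9 CPM in cNK. The sum of 6 erythroid genes was 278 and 3030 CPM in LrNK labelled CD8KO, against 2.84 to 4.75 CPM in cNK labelled CD8KO, and 142 to 936 CPM in LrNK WT, against 2.52 to 4.59 CPM in cNK WT. Of 8 B cell genes, 2 were higher and none lower in LrNK under each label. Of 7 endothelial genes, 5 were higher in LrNK under the CD8KO label, and 1 of 4 tested was higher in WT. The sum of 8 NK cell genes was 5637 and 7762 CPM in LrNK labelled CD8KO, against 14190 to 14909 CPM in cNK labelled CD8KO, and 9204 to 11942 CPM in LrNK WT, against 13152 to 14751 CPM in cNK WT. Apart from the values that follow, the part of these transcripts in the members' differences was not tested. In bulk samples such as these, fewer cells of a type and less RNA per cell cannot be told apart.

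Across the 5 LrNK samples, Npc2 and Nr1h3 followed the order of the neutrophil and monocyte sum in 10 of 10 pairs of samples, and Soat1 did so in 9 of 10. Srebf2, Stard4 and Srebf1 did so in 4 of 10, Lss in 3, Insig1, Abca1 and Npc1 in 5, Mvk and Fdft1 in 6, Mvd in 7, and Sqle, Cyp51 and Msmo1 in 8. The 5 samples are few, and these orders are given as a description. In the summed sample of LrNK WT libraries 2 and 4, where the Kupffer sum lay within the cNK WT range and the neutrophil and monocyte sum was the lowest in LrNK, the log2 difference from cNK WT (no test) was 2.36 for Sqle, 1.81 for Cyp51, 1.53 for Mvk, 1.36 for Lss, 1.35 for Mvd, 1.15 for Fdft1, 0.70 for Msmo1, 1.89 for Srebf2, 0.89 for Srebf1, 2.67 for Insig1, 0.97 for Stard4 and -1.66 for Abca1. In that same sample it was 0.16 for Npc2, -0.12 for Soat1 and -0.87 for Nr1h3. That sample was not free of other transcripts: Lyz2 was at 553 CPM, against 11.9 to 15.9 CPM in cNK WT, Csf3r at 11.5 CPM, against 0.437 to 0.896 CPM, Cd14 at 25.1 CPM, against 2.47 to 3.06 CPM, and the hepatocyte sum at 33.2 CPM, against 1.37 to 2.07 CPM. Its Kupffer genes differed both ways within a like sum. Csf1r was at 120 CPM, against 59.8 to 88.9 CPM in cNK WT, and Clec4f at 3.05 CPM, against 0. Cd5l was lower, at 2.54 CPM, against 21.1 to 28.2 CPM. The same LrNK libraries are the ones with many detected genes, as all cNK libraries are. Under the CD8KO label, where the summed sample of libraries 2 and 3 is the one with many detected genes and had a neutrophil and monocyte sum of 2507 CPM, the log2 difference from cNK (no test) was 2.57 for Sqle, 1.97 for Cyp51, 1.96 for Srebf2, 3.08 for Insig1, 1.01 for Stard4, -1.01 for Npc1 and -1.61 for Abca1. In it Npc2 was at 0.72, Soat1 at 0.77 and Nr1h3 at 1.16, so these were higher there too.

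**Figure D4:**
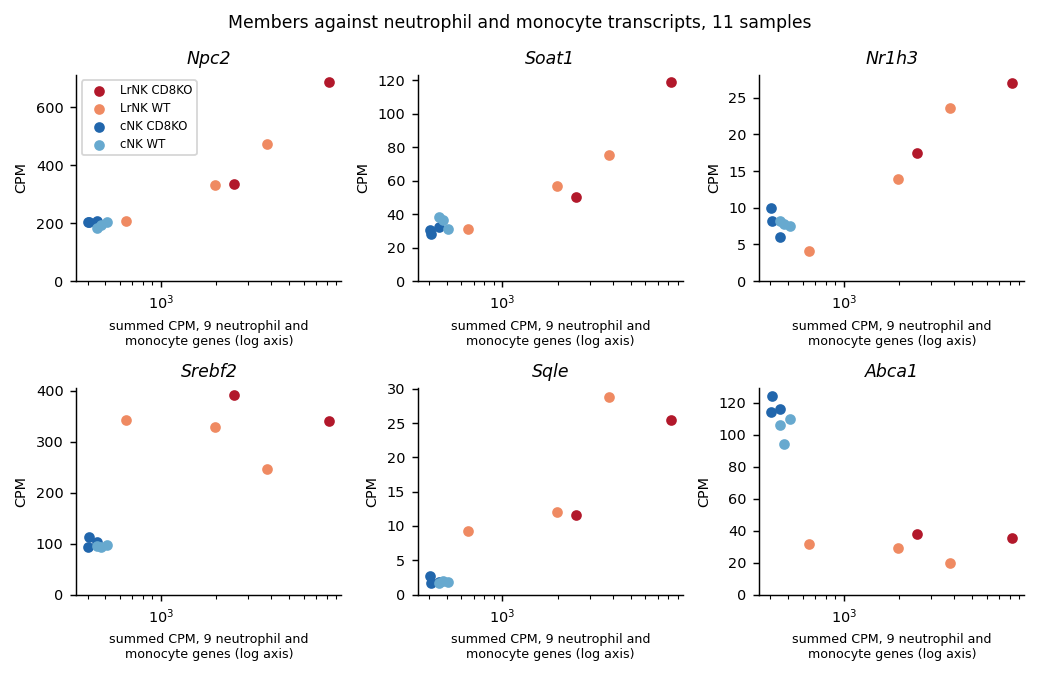
CPM of 6 members (y axis, linear, from 0) against the summed CPM of 9 neutrophil and monocyte genes (x axis, log scale) in the 11 samples, coloured by group. Npc2, Soat1 and Nr1h3 are highest where the sum is highest, at 8263; Srebf2 and Sqle are above, and Abca1 below, the cNK level also in the LrNK sample with the lowest sum, 651.

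These calls depend on which samples enter the fit. Leaving out any 1 cNK WT library left 4 or 5 of the 12 calls in WT (5 without replicate 1, 4 without replicate 2, 4 without replicate 3), and leaving out any 1 cNK library labelled CD8KO left 9 or 10 of the 17 under that label (9 without replicate 1, 10 without replicate 2, 9 without replicate 3). Srebf2, Cyp51 and Abca1 passed under both labels under every alternative tested, as did Srebf1 in WT and Sqle, Mvd, Lss, Insig1 and Stard4 under the CD8KO label. The calls over all genes moved with these counts, to 5.86% to 6.44% of genes in WT and 9.76% to 10.5% under the CD8KO label, so the loss was not particular to the members. Leaving out 1 LrNK WT sample instead raised the calls over all genes, from 20.7% to between 24.7% and 41.2%. Without LrNK CD8KO libraries 2 and 3, a single LrNK sample remained whose spread was taken from cNK, and 27 members passed, beside 69.4% of all genes.

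The second question was what the CD8KO label changed. In LrNK no member passed edgeR's quasi-likelihood test between CD8KO-labelled and WT samples, beside 0% of the 16504 genes tested, and none had an unadjusted p under 0.05, where 615 of all genes did. DESeq2 and limma voom also called no member there, beside 0.376% and 0% of all genes. Over the 32 members the median log2 change was 0.14, beside 0.02 over all genes, with 18 members above 0 and 14 below. Groups did not overlap for Dhcr7, Scap and Abca1, all higher under the CD8KO label, beside 18.4% of all genes (11.2% higher and 7.16% lower). Dhcr7 had 46.8 and 31 CPM in LrNK labelled CD8KO, against 29.5, 26.4 and 26.5 CPM in LrNK WT, a log2 change of 0.47 ± 0.27 (edgeR adjusted p = 1). Abca1 had 0.42 ± 0.30 and Scap 0.23 ± 0.20 (edgeR adjusted p = 1 for both). Between libraries with few detected genes the log2 differences (no test) were 0.73 for Dhcr7, 0.54 for Abca1 and 0.33 for Scap, and between those with many they were 0.22, 0.25 and 0.13. Msmo1 and Cyp51 were at 0.83 and 0.88 between libraries with few detected genes and at -0.31 and -0.01 between those with many.

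The widest estimates in LrNK were 0.93 ± 0.54 for Idi1 and -0.67 ± 0.43 for Insig2 (edgeR adjusted p = 1 for both). With only 2 and 3 samples of wide spread, changes of that size could not be told from the variation between samples. The neutrophil and monocyte sum also differed between these groups, at 8263 and 2507 CPM in LrNK labelled CD8KO, against 1983, 651 and 3804 CPM in LrNK WT, with 8 of its 9 genes higher without overlap under the label. The summed CPM of 8 NK cell genes was 5637 and 7762 in LrNK labelled CD8KO, against 9204 to 11942 in LrNK WT. The part of these differences in the members' values was not tested. This comparison shares its samples with those of LrNK against cNK above.

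**Figure D5:**
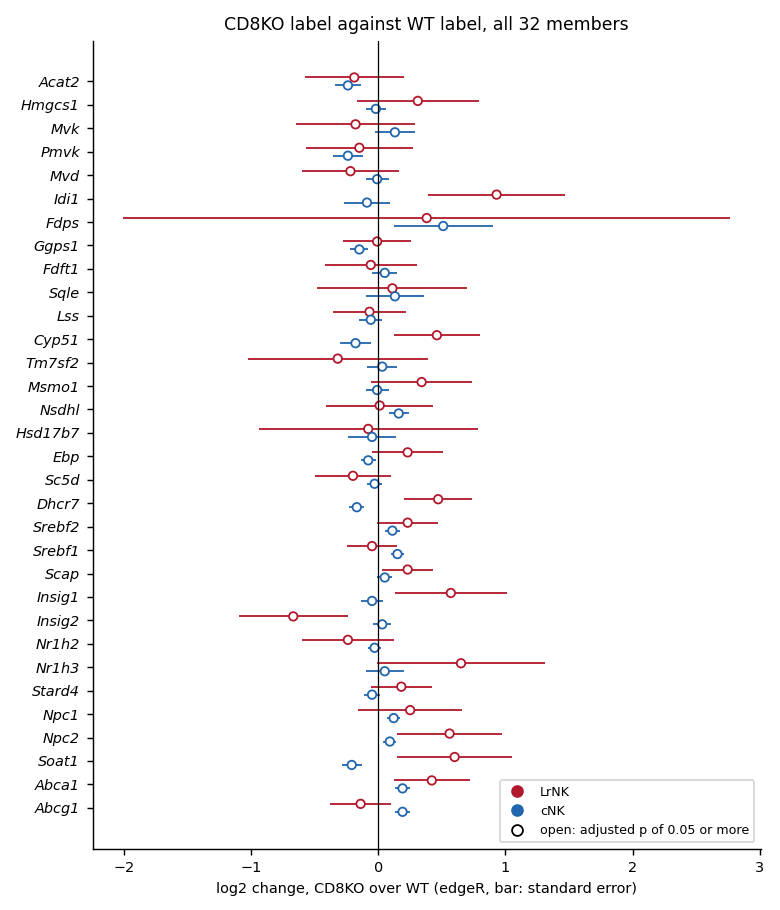
Log2 change of CD8KO-labelled over WT samples (x axis) for each of the 32 members (y axis), with LrNK in dark red above cNK in blue. Points are edgeR estimates and bars are standard errors; all points are open, since no member passed an adjusted p of 0.05, and the bars are far wider in LrNK than in cNK.

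In cNK the samples agreed much more closely, and small differences could be measured. No member passed between CD8KO-labelled and WT samples by edgeR's quasi-likelihood test, beside 1.31% of the 16619 genes tested (0.499% higher and 0.812% lower), and 8 of the 32 had an unadjusted p under 0.05, where 2140 of all genes did. DESeq2 called 1 member, Abcg1, beside 3.08% of all genes, and limma voom called none, beside 1.34%. Without cNK WT replicate 2, edgeR also called Abcg1, at 0.24, beside 1.48% of all genes. The median log2 change over the members was -0.01, beside 0.00 over all genes, and the estimates ran between -0.24 and 0.51. The estimates for both efflux pumps were slightly above 0. Abcg1 had 154, 150 and 142 CPM in cNK labelled CD8KO, against 126, 140 and 125 CPM in cNK WT, a log2 change of 0.19 ± 0.06 (edgeR adjusted p = 0.136). Abca1 had 116, 124 and 114 CPM in cNK labelled CD8KO, against 94.3, 110 and 106 CPM in cNK WT, a log2 change of 0.19 ± 0.06 (edgeR adjusted p = 0.182). Neither pair of groups overlapped, as was so for 6 members higher and 4 lower under the label, beside 17.7% of all genes (8.85% higher and 8.88% lower).

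The other cNK members with an unadjusted p under 0.05 had small estimates too. Dhcr7 was at -0.17 ± 0.06, Soat1 at -0.21 ± 0.08, Acat2 at -0.24 ± 0.10 and Ggps1 at -0.15 ± 0.07, while Srebf1 was at 0.15 ± 0.05 and Npc1 at 0.12 ± 0.05 (edgeR adjusted p between 0.234 and 0.347). For Srebf2 the log2 change was 0.11 ± 0.06 (edgeR adjusted p = 0.512), for Sqle 0.13 ± 0.23 (edgeR adjusted p = 0.87) and for Insig1 -0.05 ± 0.09 (edgeR adjusted p = 0.883). Markers of other cells also differed by label in cNK. All 8 B cell genes were above 0, 6 of them without overlap, with a median log2 change of 0.66, and Ighm rose by 0.31 ± 0.05 (edgeR adjusted p = 0.00264). All 8 T cell genes were above 0, with a median of 0.31, and Cd3d rose by 0.57 ± 0.10 (edgeR adjusted p = 0.0134). Of the NK subset markers, Itga1 rose by 0.75 ± 0.09 (edgeR adjusted p = 0.000535) and Klra8 fell by 0.71 ± 0.07 (edgeR adjusted p = 7.73e-05). The part of these in the members' values was not tested.

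Whether the label's effect differed between LrNK and cNK was tested as the interaction of cell type and label over all 4 groups. No member passed by edgeR's quasi-likelihood test, beside 0.0415% of 19287 genes (0.00518% higher and 0.0363% lower), and 1 member, Dhcr7, had an unadjusted p under 0.05, where 1628 of all genes did. DESeq2 and limma voom called no member, beside 1.75% and 0.0156% of all genes. Without libraries 2 and 3 of LrNK labelled CD8KO, a single LrNK sample of that label remained and Dhcr7 was called, at 0.90, beside 1.21% of all genes. The median over the members was 0.13, beside 0.07 over all genes. The 4 groups share 1 estimate of the spread in that fit, although LrNK samples vary far more than cNK samples.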

How the data were processed

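The authors deposited 1 table of gene counts per library, 13 in all, with the same 54532 Ensembl identifiers. Alignment used HISAT2 2.1.0 and the build was GRCm38, per the submitters' processing notes. How counts were made (tool, annotation release, strand) is not given in the sources used here. By identifier, 54495 genes matched GENCODE M21 and 37 did not. The members, gene lists and alternatives were chosen with earlier results of these data known.

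Libraries of 1 group whose chi-square per degree of freedom over genes with at least 12 counts was under 4, and at least 3 times below every other pair, were summed. Genes were tested with edgeR 4.0.16 (R 4.3.3): TMM scaling, filterByExpr with a minimum count of 10 and total of 15, quasi-likelihood test, Benjamini-Hochberg adjustment over all genes tested, threshold 0.05. Only the 2 groups compared entered each fit, and all 4 entered the interaction. CPM uses TMM-scaled library sizes. The code was tested on simulated counts. Alternatives were DESeq2 1.42.0, limma 3.58.1 voom with group weights, library totals, no filter, 1 fit of all groups, 13 separate libraries, a replicate block, leaving out each sample, and splitting libraries at 16000 detected genes. Every member is named. From other lists, called genes are named where a list has at most 5, otherwise the 3 with the smallest p in each direction.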

Additional observations from a re-analysis of the deposited data

Results flagged for a closer look

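Dhcr7, the last reductase of cholesterol synthesis, was higher under the CD8KO label in LrNK and lower in cNK, with no overlap between groups in either. It had 46.8 and 31 CPM in LrNK labelled CD8KO, against 29.5, 26.4 and 26.5 CPM in LrNK WT, and 28.5, 27.1 and 27.6 CPM in cNK labelled CD8KO, against 29.8, 33 and 30.9 CPM in cNK WT. The log2 difference of the label's effect, LrNK minus cNK, was 0.67 ± 0.24 and did not pass (edgeR adjusted p = 0.468). Between libraries with many detected genes the same difference was 0.40 (no test), and LrNK CD8KO replicate 1, the highest Dhcr7 sample, was also the sample highest in neutrophil and monocyte transcripts (8263 CPM). The part of those transcripts in the Dhcr7 level was not tested.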

How the results depend on the processing

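Leaving out 1 sample at a time gave 4 to 17 members called in LrNK WT against cNK WT, 9 to 27 in LrNK against cNK labelled CD8KO, 0 to 1 in cNK by label, 0 in LrNK by label and 0 to 1 in the difference. Over all genes the same settings called 5.86% to 41.2%, 9.76% to 69.4%, 0.415% to 1.48%, 0% and 0.0261% to 3.46%, so these ranges say little about the members. A lone LrNK sample was taken to vary like the other samples of the fit. In cNK by label, DESeq2 called 1 member (Abcg1) and the fit with no filter 2 (Abcg1 and Abca1). With only the LrNK WT libraries of many detected genes, an alternative added after seeing the data, the LrNK WT arm is the 1 summed sample of libraries 2 and 4 and the spread comes from cNK. It called 21 members in LrNK WT against cNK WT, 14 higher and 7 lower, beside 58.2% of all genes. Nr1h3 (-0.94), Sc5d (-0.35) and Hmgcs1 (-0.42) were among the members with values below 0 in that sample. By the log2 difference without a test, others below 0 there included Insig2 (-0.83), Dhcr7 (-0.20), Acat2 (-0.13) and Nsdhl (-0.11). Leaving out 1 LrNK CD8KO sample put Ebp between -0.26 and 0.46 and Nsdhl between -0.40 and 0.30 for LrNK over cNK labelled CD8KO. The cause was not tested. Replicate numbers are not known to pair the samples. Their deviations correlated at -0.101 to 0.153 in the comparisons outside LrNK by label, and at 0.353 and 0.538 in LrNK by label, whose 2 pairs are too few to decide. In those pairs, replicate 1 had few detected genes under both labels, and the summed samples had many. Pairing and the number of detected genes therefore cannot be told apart there. With a replicate block, 8 members were called in LrNK WT against cNK WT, 12 in LrNK against cNK labelled CD8KO and 0 in the other comparisons. Of all genes, the block called 1801, 2162, 180 (LrNK by label), 355 (cNK by label) and 6 (difference). By label, the 4-group fit called 138 genes in LrNK and 1 in cNK, DESeq2 62 and 512, and no filter 259 and 590. Scaling by library totals put the median log2 of all genes for LrNK over cNK at -0.17 under either label and kept all 17 and 12 member calls. The 300-base promoter window gave the same synthesis counts. Depth was ample for all members but Fdps, and the spread between LrNK samples set the precision.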

Other observations

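Other gene lists around the sterol pathway are read against 27% of all genes called under the CD8KO label and 20.7% in WT for LrNK over cNK. Of 12 genes of fatty acid supply linked to SREBP1, 2 were higher and 5 lower of 11 tested in LrNK labelled CD8KO than in cNK labelled CD8KO, and 0 were higher and 3 lower of 10 tested in LrNK WT against cNK WT (edgeR adjusted p under 0.05), which is 63.6% and 30% of those tested. Acss2, which makes acetyl-CoA from acetate, had 28.6 and 29.5 CPM in LrNK labelled CD8KO, against 104, 103 and 102 CPM in cNK labelled CD8KO, and 45.8, 34.9 and 25.7 CPM in LrNK WT, against 93, 91.6 and 91.9 CPM in cNK WT. The log2 changes were -1.81 and -1.35. Scd2, a fatty acid desaturase, fell by 1.42 and 1.43, and Acly, which makes acetyl-CoA from citrate, fell by 0.51 in WT. Elovl6, a fatty acid elongase, fell by 1.19 under the CD8KO label, where Scd1 rose by 2.88 and Aacs, which activates acetoacetate, by 0.92. The median over this list was -0.39 under the CD8KO label and -0.54 in WT, opposite in sign to the 0.68 and 0.59 of the 19 synthesis genes.

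Of 5 further genes known to be driven by liver X receptors, Arl4c and Mylip were lower in LrNK under both labels, as Abca1 was, and Plin2 and Smpdl3a were higher under both. Arl4c had 255 and 272 CPM in LrNK labelled CD8KO, against 897, 878 and 808 CPM in cNK labelled CD8KO, and 207, 164 and 232 CPM in LrNK WT, against 734, 732 and 721 CPM in cNK WT. Lpcat3 was lower in WT, by a log2 change of -0.66. Arl4c was also the gene of this list that passed in cNK by label, where it rose by 0.24 ± 0.04 (edgeR adjusted p = 0.0138). Of 10 genes of the isoprenoid branch, Coq2, of ubiquinone synthesis, and Fntb, a farnesyltransferase subunit, were higher in LrNK under both labels, by 0.82 and 0.84 under the CD8KO label and 0.84 and 1.53 in WT.

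Of the oxysterol genes, Cyp27a1, sterol 27-hydroxylase, had 62.2 and 31.4 CPM in LrNK labelled CD8KO, against 0.426, 0.83 and 0.623 CPM in cNK labelled CD8KO, and 15.4, 7.99 and 60.2 CPM in LrNK WT, against 0.512, 0.437 and 0.414 CPM in cNK WT. Gpr183, an oxysterol receptor, rose by 3.19 under the CD8KO label. Scarb1, the receptor for selective uptake of sterol from high-density lipoprotein, had 195 and 58.5 CPM in LrNK labelled CD8KO, against 3.37, 5.96 and 4.86 CPM in cNK labelled CD8KO, and 26.8, 16.2 and 55.1 CPM in LrNK WT, against 5.55, 4.79 and 5.62 CPM in cNK WT. Cyp27a1 and Scarb1 were highest and lowest in the LrNK samples that were highest and lowest in neutrophil and monocyte transcripts, at sums of 8263 and 651 CPM, and the part of those transcripts in their levels was not tested. Of the 13 sterol transport and hydrolysis genes, 12 were tested, and 4 were higher and 2 lower under the CD8KO label, Stard3 (0.42), Stard5 (0.67), Gramd1c (-1.40) and Osbpl2 (-0.61) among them, and in WT Gramd1a (0.75) was also higher and Osbp (-0.63) lower. Of 8 genes of SREBP processing, Erlin1 (2.34) and Tmem97 (1.02) were higher and Mbtps2 (-0.63) lower under the CD8KO label, and none passed in WT by edgeR, where 3 had an unadjusted p under 0.05. Of 10 proliferation genes, Pcna was the one that passed, at 1.04 under both labels.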
